A study of Homo sapiens with 4 samples.

Results

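Between the TR9_MeTA14 and TR15_MeTA5 cell lines, 125 array probes moved in opposite directions when tetracycline was added, of 34127 non-control probes on the array. They were chosen by their change itself. A probe had to be flagged well above background on all 4 arrays, and its log2 signal had to change by at least 1.5-fold, upward in one line and downward in the other. Of the 19298 probes that passed the background filter, 60 were higher in TR9_MeTA14 and lower in TR15_MeTA5 with tetracycline (0.311%), and 65 were lower in TR9_MeTA14 and higher in TR15_MeTA5 (0.337%). FOLR2, DHRS2, DDC and UGT2B15 led the first set by size of change, and B3GNT5, KCTD9, ACTA2 and ASB10 the second. The first set held 50 probes paired with 48 genes, and the second 48 probes paired with 48 genes. The other 10 and 17 probes were not paired with 1 gene and are counted under the identifiers of the array design.

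Both lines derive from LNCaP, an androgen-responsive human prostate cancer cell line. Each carries a Tet repressor from the plasmid pcDNA6/TR, introduced first to give the TR9 and TR15 cells, and a second plasmid, pcDNA4/TO/NFκB(AD)-MBD, from which tetracycline induces a FLAG-tagged fusion protein. Each line was measured without tetracycline (-Tet) and after 4 days with it (+Tet), which gave 4 samples with 1 array each. TR9 and TR15 are separate isolates of stably transfected cells, so a difference between the lines cannot be told apart from a difference between isolates. No array of tetracycline-treated cells lacking the fusion construct was analysed here, so an effect of the drug cannot be told apart from one of the fusion protein.

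Methyl-CpG targeted transcriptional activation (MeTA) joins the part of a methyl-CpG binding protein that attaches to methylated CpG dinucleotides to the activation domain of NFκB, a strong transcriptional activator. Binding at a methylated promoter is meant to switch on the silenced gene. CpG methylation of a promoter is a common form of gene silencing in prostate cancer, and cell lines derived from the same parent can differ in which promoters carry it. Methylation at the genes below was not analysed here.

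Signals are given as scaled signal, the processed signal in percent of the 75th-percentile signal of the same array, so that a probe at that percentile has 100%. Untreated and treated TR9_MeTA14 had this percentile at processed signals of 617 and 777, and TR15_MeTA5 at 367 and 542. Changes and gaps are differences of log2 scaled signal. With 1 array per condition there is no replicate, no p-value is given, and the difference between the lines' changes leaves 0 residual degrees of freedom. The only measured error is technical. Probes printed as 10 spots gave an SD of 0.087 for a log2 ratio, and the extraction software's own error model gave the members errors between 0.20 and 0.38 for each log2 change. Both changes were at least 3 times this error in 30 of the 60 and 43 of the 65 probes, and at least 2 times in 54 and 64. Because the rule chose large changes, these counts follow in part from the selection and are a description.

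The 7 prostate luminal markers KLK3, KLK2, TMPRSS2, HOXB13, FOLH1, KRT8 and KRT18 were well above background on all 4 arrays. None of the 3 basal markers KRT5, KRT14 and TP63 was so on any array. Summed scaled signal of these luminal markers went from 45993% to 17022% in TR9_MeTA14 and 62190% to 39187% in TR15_MeTA5. KLK3 was the largest part, from 23349% to 6054% and from 36921% to 22779%. KRT8 went the other way in TR9_MeTA14, from 1383% to 1637%. The leukocyte markers PTPRC, CD3E and CD14 summed to 30.9% and 132% in TR9_MeTA14 and to 55.3% and 92.5% in TR15_MeTA5, and 2 of these 3 were well above background on every array. Of 4 fibroblast markers, COL1A1 was above background on every array and COL1A2, DCN and LUM on none, with sums in untreated and treated cells of 79.3% and 67.4% for TR9_MeTA14 and 13.7% and 22.7% for TR15_MeTA5. Their part in the results below was not tested. In bulk RNA, fewer cells of a kind and less RNA per cell cannot be told apart.

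**Figure D1:**
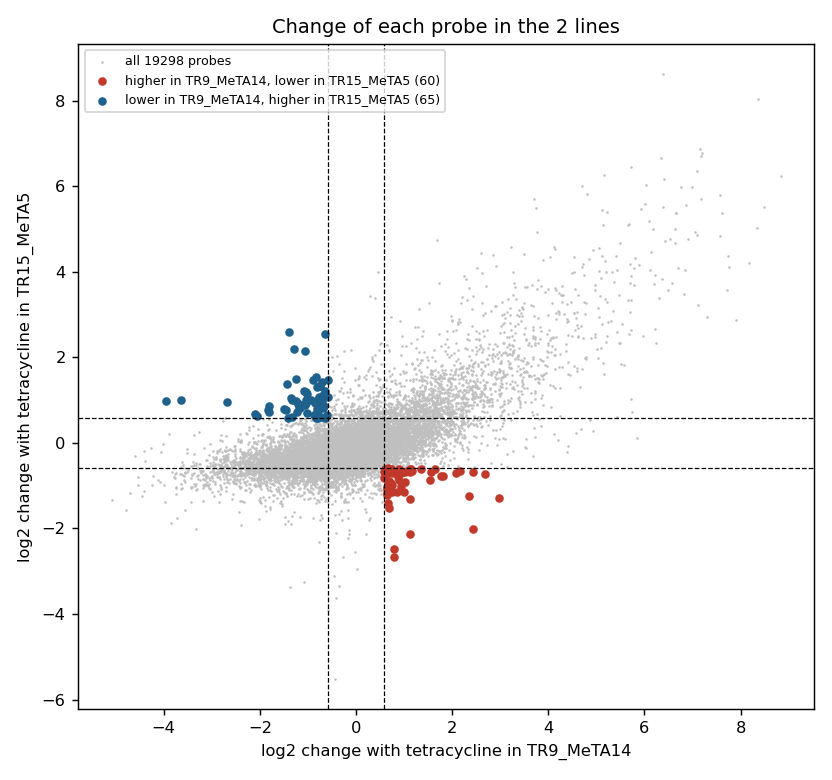
Log2 change with tetracycline in TR9_MeTA14 (x axis) against TR15_MeTA5 (y axis) for the 19298 probes that passed the background filter, 1 point per probe, with the 60 and 65 opposite movers in colour and dashed lines at 1.5-fold either way. The opposite movers fill the upper left and lower right corners, and most lie close to the dashed lines that define them.

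Opposite movement beyond the cut-off was the rarest pattern among probes changed in both lines. Of 2992 probes at least 1.5-fold changed in each line, 1502 were higher in both and 1365 lower in both. Over all 19298 probes, 19.2% were at least 1.5-fold higher and 28.8% lower with tetracycline in TR9_MeTA14, against 9.46% higher and 10.8% lower in TR15_MeTA5. These are the contrasts that chose the members, so nothing is read from them. Without regard to size, 5017 probes (26.0%) had changes of opposite sign. Only 5 of the 60 and 11 of the 65 were at least 2-fold changed in each line, and 1 of the 60 reached 3-fold in both.

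The upstream promoter sequence of 5 member genes is shown because the fusion protein is directed at methylated CpG, and these promoters differ widely in their CpG. DHRS2 and HES6 were higher in TR9_MeTA14 and lower in TR15_MeTA5, and B3GNT5, DIO3 and ACTG2 were the reverse. Each run is the 250 bases before the start site from RefSeq on GRCh38.p14, 5′ to 3′ on the strand of the gene. They lie at chr14:23629865-23630114 (plus strand) for DHRS2, chr2:238240039-238240288 (minus) for HES6, chr3:183253003-183253252 (plus) for B3GNT5, chr14:101561245-101561494 (plus) for DIO3 and chr2:73892758-73893007 (plus) for ACTG2. Capitals mark CpG in the first 4, and in ACTG2 the CArG box, the motif of serum response factor in muscle genes.
DHRS2: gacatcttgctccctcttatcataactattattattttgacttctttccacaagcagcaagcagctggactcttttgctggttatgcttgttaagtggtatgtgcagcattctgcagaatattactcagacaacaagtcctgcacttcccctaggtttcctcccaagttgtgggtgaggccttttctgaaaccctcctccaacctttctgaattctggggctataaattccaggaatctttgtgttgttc
HES6: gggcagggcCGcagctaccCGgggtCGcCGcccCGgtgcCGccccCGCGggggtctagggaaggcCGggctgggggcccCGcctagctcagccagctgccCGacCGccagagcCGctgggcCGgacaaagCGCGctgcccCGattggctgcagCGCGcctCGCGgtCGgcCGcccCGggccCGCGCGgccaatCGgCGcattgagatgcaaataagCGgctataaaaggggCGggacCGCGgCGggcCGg
B3GNT5: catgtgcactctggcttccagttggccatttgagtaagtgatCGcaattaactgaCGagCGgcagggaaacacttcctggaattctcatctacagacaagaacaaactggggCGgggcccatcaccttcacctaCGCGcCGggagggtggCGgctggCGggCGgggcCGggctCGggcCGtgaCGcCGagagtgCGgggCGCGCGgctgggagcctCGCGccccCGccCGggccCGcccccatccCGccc
DIO3: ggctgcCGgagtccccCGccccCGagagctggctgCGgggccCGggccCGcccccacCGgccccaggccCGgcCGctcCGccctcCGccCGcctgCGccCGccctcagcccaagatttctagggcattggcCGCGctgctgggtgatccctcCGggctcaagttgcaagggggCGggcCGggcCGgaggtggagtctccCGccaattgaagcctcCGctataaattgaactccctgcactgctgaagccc
ACTG2: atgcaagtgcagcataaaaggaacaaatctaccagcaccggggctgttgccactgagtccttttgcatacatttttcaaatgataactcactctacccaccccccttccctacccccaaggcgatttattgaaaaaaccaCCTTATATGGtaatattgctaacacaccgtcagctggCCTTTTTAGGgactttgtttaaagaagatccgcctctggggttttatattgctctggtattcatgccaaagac

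DHRS2 has 0 CpG in these bases, HES6 35, B3GNT5 25 and DIO3 22. The CArG boxes of ACTG2 begin 110 and 73 bases before the start site, and 1.29% of 35116 promoter windows of 300 bases held at least 1. Among genes with a window, 0 of 37 in the set higher in TR9_MeTA14 held such a box. In the set lower in TR9_MeTA14, 2 of 37 did (5.41%), ACTG2 and GRB14, against 1.56% of all measured genes with a window. No strict CArG box was found in the windows of ACTA2, the other smooth muscle actin gene of this set, which says only that these letters are not there. The letters TATAAA, on either strand, were in the windows of DHRS2, HES6, DIO3 and ACTG2 and in 11.5% of all windows. These promoters were picked for display. Among genes with a window, 3 of 37 (8.11%) in the set higher in TR9_MeTA14 and 6 of 37 (16.2%) in the other held these letters. The share was 8.7% of all measured genes with a window. A comparison of CpG content over all members was void, since only 37 of 48 genes in each direction (77.1%) had a promoter window, under the 80% required.

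Among genes higher in TR9_MeTA14 and lower in TR15_MeTA5, the changes had medians of 0.82 and -0.71 and reached 2.98 and -2.66. By the smaller of both changes, FOLR2, DHRS2 and DDC ranked first. FOLR2, the beta folate receptor, had a scaled signal of 6.01% in untreated and 32.6% in treated TR9_MeTA14, and of 32.0% in untreated and 7.94% in treated TR15_MeTA5. Its log2 changes of 2.44 (software error 0.25) and -2.01 (0.26) exchanged the levels of the lines almost exactly. DHRS2, a short-chain dehydrogenase/reductase, went from 7.89% to 62.4% in TR9_MeTA14 and 64.7% to 26.3% in TR15_MeTA5, log2 changes of 2.98 and -1.30. Its promoter is the one without CpG shown above. DDC, the decarboxylase that makes dopamine and serotonin and is used as a neuroendocrine marker, went from 25.7% to 130% in TR9_MeTA14 and 122% to 51.8% in TR15_MeTA5, log2 changes of 2.34 and -1.24. In these 3 genes the untreated TR15_MeTA5 cells and the treated TR9_MeTA14 cells were the high arrays.

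UGT2B15, which inactivates androgens by glucuronidation, was different. It was high in both TR9_MeTA14 arrays, at 723% and 1584%, and low in both TR15_MeTA5 arrays, at 28.6% and 11.5%. The log2 changes were 1.13 and -1.31, and the gap of TR15_MeTA5 below TR9_MeTA14 went from -4.66 to -7.10, the widest of all 125 members on the +Tet arrays. Its drop in TR15_MeTA5 was not shared by the UGT2B10, UGT2B11 and UGT2B7 probes of this closely related family. The UGT2B11 change there lay near the median of -0.19 over all probes, and its processed signal rose from 171 to 205. The UGT2B4 probe was not well above background on any array. UGT2B10 changed by 4.21 and 0.08, UGT2B11 by 3.68 and -0.30, and UGT2B7 by 5.84 and 0.11 in TR9_MeTA14 and TR15_MeTA5. Probe sequences are not in the files used here, so cross-hybridization among these genes was not tested.

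INCA1, an inhibitor of cyclin-dependent kinase that binds cyclin A1, went from 9.40% to 18.7% in TR9_MeTA14 and 19.8% to 8.86% in TR15_MeTA5, changes of 0.99 and -1.16. ADRB3, the beta-3 adrenergic receptor, went from 6.69% to 12.7% and from 19.9% to 9.88%, changes of 0.93 and -1.01. ZNF148, a zinc finger transcription factor, went from 14.7% to 29.8% and from 43.1% to 23.0%, changes of 1.02 and -0.91. The order of the 4 arrays was alike in these genes, with TR15_MeTA5 -Tet highest, and TR9_MeTA14 -Tet lowest in ADRB3 and ZNF148. ADGRG3, an adhesion G protein-coupled receptor, changed by 0.86 and -1.15 at scaled signals of 4.85% to 11.9%, close to the lowest that passed the filter. A brighter ADGRG3 probe, at 51.6% to 64.2%, changed by 0.25 and 0.13, higher in both lines. GTF2IRD2, of the TFII-I repeat family, changed by 0.88 and -0.79. DUSP18, a dual-specificity phosphatase, went from 5.57% to 35.9% in TR9_MeTA14 and 19.4% to 11.8% in TR15_MeTA5, changes of 2.69 and -0.73.

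Some genes were at about the same level in both lines without tetracycline and parted with it. TMX4, a thioredoxin-related protein of the endoplasmic reticulum membrane, stood at 230% and 228% in untreated TR9_MeTA14 and TR15_MeTA5 and at 807% and 133% in treated cells. Its changes were 1.81 and -0.78. IFI27L1, named for its likeness to the interferon-inducible IFI27, stood at 255% and 320% untreated and at 440% and 57.2% treated, changes of 0.79 and -2.48. Its paralog IFI27L2, not a member, changed by 2.0 and 1.52. SH3RF1, a scaffold with a RING domain chosen after its values were seen, went from 227% to 714% in TR9_MeTA14 and 214% to 141% in TR15_MeTA5. In these 3 genes the gap between the lines was under 1.5-fold on the untreated arrays and wide on the treated ones.

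PLAAT5, a phospholipase A and acyltransferase, was 1 of the brighter members among those with large changes, going from 170% to 314% in TR9_MeTA14 and 386% to 209% in TR15_MeTA5, changes of 0.89 and -0.88, while its other probe changed by -0.14 and -0.48. RNASE4, a secreted ribonuclease, changed by 0.74 and -0.98, and GLOD5, a glyoxalase domain protein, by 1.76 and -0.78, both at scaled signals of at most 16.8%. TALDO1, the transaldolase of the pentose phosphate pathway, was among the brightest of the set, going from 3456% to 5426% in TR9_MeTA14 and 4622% to 2961% in TR15_MeTA5, changes of 0.65 and -0.64. MAGEC1, a cancer-testis antigen, went from 6.89% to 11% and from 59.3% to 30.9%, changes of 0.67 and -0.94. TR15_MeTA5 stayed above TR9_MeTA14 for MAGEC1 on both pairs of arrays.

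HES6, a basic helix-loop-helix factor that opposes HES1, was the only gene with more than 1 member probe, and for that reason it was singled out after its values were seen. The brightest of its 3 member probes went from 4245% to 6444% in TR9_MeTA14 and 12772% to 8276% in TR15_MeTA5, changes of 0.60 and -0.63. The other 2 changed by 0.74 and -0.71 and by 0.89 and -0.71. The remaining HES6 probe changed by 0.17 and -1.01. All 4 probes were highest in TR15_MeTA5 -Tet and lowest in TR9_MeTA14 -Tet. Also named after their values were seen, ACKR3, an atypical receptor for the chemokine CXCL12, went from 1143% to 2567% and from 4097% to 2611%, which brought the lines to nearly the same level. CBLN2, a secreted synaptic organizer, went from 3046% to 6658% in TR9_MeTA14 and 1691% to 1107% in TR15_MeTA5.

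**Figure D2:**
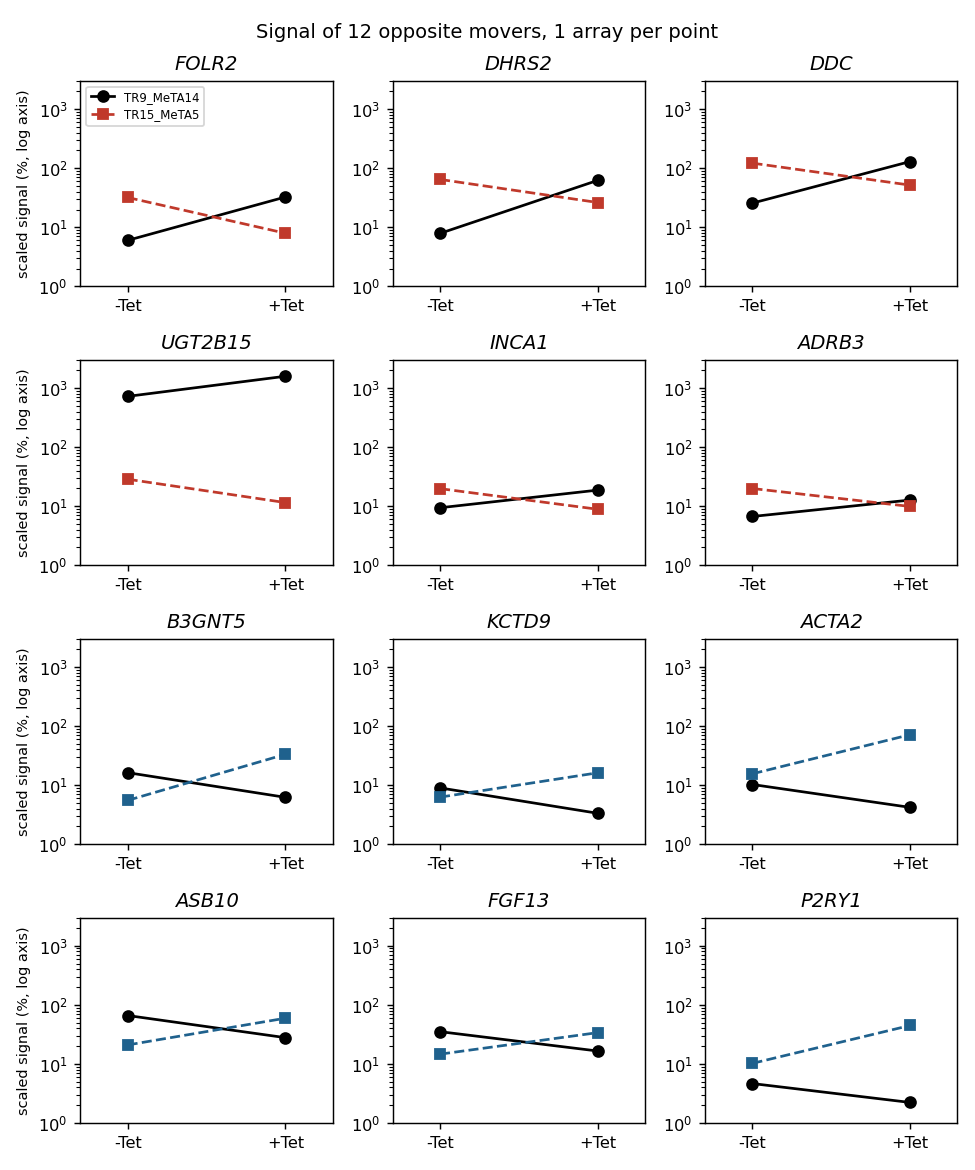
Scaled signal (percent of the array's 75th percentile, log axis) without and with tetracycline for the 6 genes with the largest smaller-of-both change in each direction, 1 array per point, TR9_MeTA14 as circles and TR15_MeTA5 as squares. The lines cross for FOLR2, DHRS2, DDC, INCA1, ADRB3, B3GNT5, KCTD9, ASB10 and FGF13 and do not cross for UGT2B15, ACTA2 and P2RY1.

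Among genes lower in TR9_MeTA14 and higher in TR15_MeTA5, the changes had medians of -1.01 and 0.96 and reached -3.95 and 2.59. Both smooth muscle actin genes were in this set. ACTA2, smooth muscle alpha actin, went from 10.2% to 4.18% in TR9_MeTA14 and 15.5% to 71.2% in TR15_MeTA5. Its changes were -1.29 (software error 0.27) and 2.20 (0.23). ACTG2, smooth muscle gamma actin, whose promoter with CArG boxes is shown above, went from 5.69% to 3.06% and from 31.0% to 85.6%, changes of -0.89 and 1.47. It was named after its values were seen. Treated TR15_MeTA5 was the high array in both genes. Of the other actins, the skeletal gene ACTA1 changed by 1.68 and 4.74, the same way in both lines, and the 2 probes of cytoplasmic ACTB by -0.54 and -0.62 and by -0.47 and -0.22. The other cytoplasmic gene, ACTG1, changed by 1.09 and 0.32, and cardiac ACTC1 was not well above background on any array.

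B3GNT5, the glycosyltransferase that starts lacto-series glycolipids, had the largest smaller-of-both change of this set. It went from 16.2% to 6.19% in TR9_MeTA14 and 5.49% to 33.1% in TR15_MeTA5, changes of -1.39 and 2.59. P2RY1, a receptor for ADP, went from 4.64% to 2.22% and from 10.2% to 44.7%, changes of -1.06 and 2.14, and its 2 other probes were not above background on all arrays. FGF13, an intracellular fibroblast growth factor homolog that binds sodium channels, went from 35.1% to 16.5% and from 14.6% to 33.8%, changes of -1.08 and 1.21. The 2 lines exchanged levels for B3GNT5 and FGF13. The antisense RNA GABPB1-AS1, named after its values were seen, went from 22.1% to 14.1% and from 4.60% to 26.7%, changes of -0.65 and 2.54. Its processed signal of 16.9 in untreated TR15_MeTA5 was the lowest of any member of this set.

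DIO3, SLC13A3 and GRB14 had the steepest declines of this set in TR9_MeTA14. DIO3, the deiodinase that inactivates thyroid hormone, went from 72.0% to 4.66% in TR9_MeTA14 and 17.3% to 33.8% in TR15_MeTA5, changes of -3.95 and 0.97. SLC13A3, a sodium-coupled dicarboxylate transporter, went from 45.5% to 3.64% and from 5.32% to 10.5%, changes of -3.64 and 0.99. GRB14, an adaptor that inhibits the insulin receptor, went from 49.6% to 7.73% and from 19.5% to 37.7%, changes of -2.68 and 0.95. Untreated TR9_MeTA14 was the high array in all 3. ASS1, the argininosuccinate synthase of the urea cycle, named after its values were seen, stood at 845% and 810% in the untreated lines and at 195% and 1292% in the treated ones, so that its gap opened only with tetracycline. IRS1, a substrate of the insulin receptor, lay in the opposite set, with changes of 0.71 and -0.61 at scaled signals of 8.13% to 16.7%.

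BAMBI, a pseudoreceptor that dampens TGF-beta signalling, was the brightest member of this set with a gene name. It went from 5251% to 3083% in TR9_MeTA14 and 2846% to 4921% in TR15_MeTA5, changes of -0.77 and 0.79. HDGF, a heparin-binding growth factor, went from 1657% to 704% and from 278% to 547%, changes of -1.24 and 0.98. HLA-DPA1, a chain of an HLA class II molecule, went from 27.4% to 13.3% and from 20.9% to 39.8%, changes of -1.04 and 0.93. CTAG1A, a cancer-testis antigen named after its values were seen, changed by -0.60 and 0.64, and the closely related CTAG2 by -0.49 and 0.56, just under the cut-off. PSMA1, a subunit of the 20S proteasome, changed by -0.73 and 0.60 at scaled signals of 9.17% to 17%. This probe is dim for a proteasome gene, as the account of other probes shows.

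The remaining named genes of this set covered varied functions. KCTD9, a BTB domain protein, changed by -1.43 and 1.37, and ADAM7, of the disintegrin and metalloprotease family, by -1.35 and 1.04. These were the only pair of member genes that are next to each other in the order of measured genes along the chromosomes. ASB10, with ankyrin repeats and a SOCS box, went from 65.9% to 27.8% and from 20.9% to 59.3%. TMEM171, a membrane protein, changed by -1.03 and 1.00, and OTUD6A, an OTU-family deubiquitinase, by -1.01 and 0.99. C5orf58 (179% to 87.0% and 23.2% to 52.4%) and the olfactory receptor gene OR5L2 (236% to 93.2% and 35.1% to 70.7%) shared an order of arrays, untreated TR9_MeTA14 highest and untreated TR15_MeTA5 lowest.

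That order was also found at the bright end. Of the 8 members of this set among the brightest 5% of probes, 7 carry Ensembl transcript identifiers that the gene tables used here do not pair with symbols, such as ENST00000362079 and ENST00000361899. In TR9_MeTA14, their scaled signals lay between 7632% and 31032% untreated and between 4681% and 19965% treated. In TR15_MeTA5, they lay between 1203% and 9680% untreated and between 3221% and 17560% treated. TR15_MeTA5 -Tet was the low array for each of them. Their changes lay between -1.19 and -0.64 in TR9_MeTA14 and between 0.86 and 1.42 in TR15_MeTA5. The gap between the lines had a median of -2.52 without tetracycline and -0.45 with it. Among the 965 brightest probes, 53 carry Ensembl identifiers. Of the 60 probes in the other set, 3 lay among the brightest 5%, those of TALDO1, HES6 and 1 probe without a gene.

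Most members were dim. Their median position among the 19298 probes by mean log2 signal was the 18.7th percentile in the set higher in TR9_MeTA14 and the 29.5th in the set lower in TR9_MeTA14. The median mean log2 scaled signal was -2.75 and -1.98, against -0.48 over all probes tested. In 28 of the 60 and 26 of the 65 probes the lowest of the 4 processed signals was under 50, where the lowest signals flagged well above background were 13.9 to 19.2 on the 4 arrays. This share was not computed over all 19298 probes, so these counts are a description.

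The change in each line can be read the other way, as the gap of TR15_MeTA5 over TR9_MeTA14 without and with tetracycline. The rule fixes that the gap moves by at least the sum of both cut-offs. It does not set where the gap starts or ends, but the gaps hold the same signals as the changes that chose the members. Selection alone therefore favours the starting signs given here, and the counts are a description. Genes higher in TR9_MeTA14 and lower in TR15_MeTA5 mostly started higher in TR15_MeTA5. The gap was positive in 52 of 60 before and in 9 after tetracycline, with medians of 1.00 and -0.91. Genes lower in TR9_MeTA14 and higher in TR15_MeTA5 mostly started lower in TR15_MeTA5. The gap was negative in 58 of 65 before and in 24 after, with medians of -1.58 and 0.68. Over all probes the median gap was 0.13 without and 0.10 with tetracycline, and the share of them with a positive or negative gap was not computed. The level of these gaps rests on the scaling of the arrays. With spike-in scaling the starting median of the first set was -0.03 in place of 1.00, and the +Tet median of the second was -0.10 in place of 0.68. Without scaling they were 0.25 and 0.16.

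In the first set, 19 probes crossed with gaps of at least 1.5-fold each way, 21 converged and 20 diverged. In the second, 19 crossed, 31 converged and 15 diverged. Without tetracycline, TR15_MeTA5 was at least 2-fold higher in 30 of the 60 (6.15% of all probes) and at least 2-fold lower in 43 of the 65 (4.55% of all). With tetracycline, it was at least 2-fold lower in 27 of the 60 (8.42% of all) and at least 2-fold higher in 27 of the 65 (12.7% of all). The gaps share their signals with the changes that chose the members, so these counts are a description.

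The mean of both gaps does not enter the changes that the rule compared, although the background filter acted on all 4 signals behind it. In the set lower in TR9_MeTA14, this mean was at least 2-fold lower in TR15_MeTA5 for 25 of 65 probes (4.39% of all probes) and at least 2-fold higher for 6 (7.45% of all), with a median of -0.35 against 0.11 over all probes. In the set higher in TR9_MeTA14, it was at least 2-fold lower for 8 of 60 and higher for 7, with a median of 0.12. SQOR, a sulfide-oxidizing enzyme of mitochondria named after its values were seen, was lowest in the second set, at 480% and 309% in TR9_MeTA14 and at 18.4% and 42.2% in TR15_MeTA5. UGT2B15 was lowest in the first set, with a mean gap of -5.88.

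**Figure D3:**
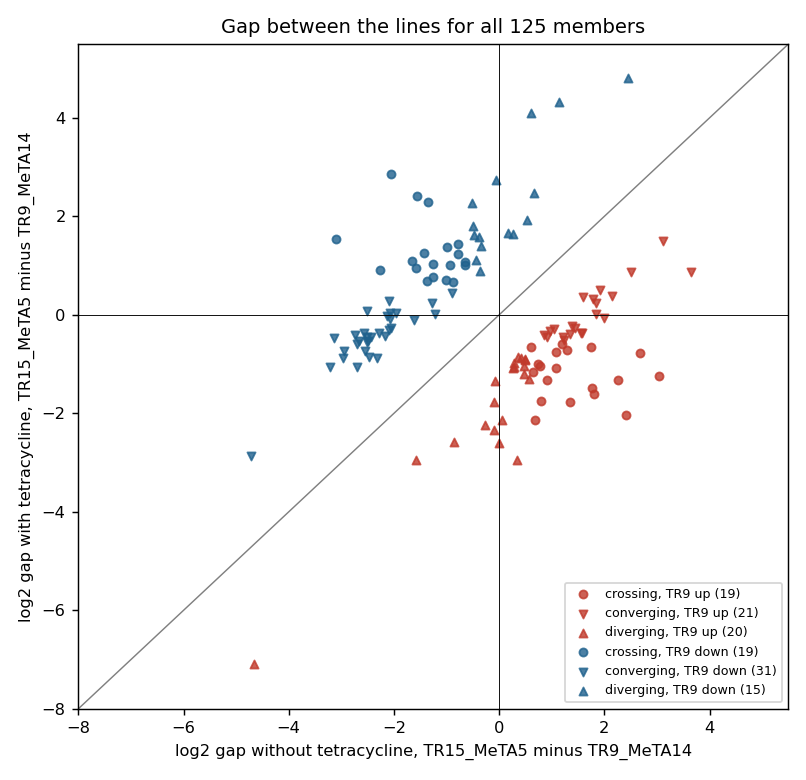
Log2 gap of TR15_MeTA5 minus TR9_MeTA14 without (x axis) and with (y axis) tetracycline for the 125 members, red for those higher and blue for those lower in TR9_MeTA14, with marker shapes for crossing, converging and diverging probes. No member can lie near the diagonal, and the blue points crowd at a starting gap between -3 and -2, with UGT2B15 alone at the lower left.

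Probes of the same genes that were not members gave a reading that did not choose the genes. A change counted as being in the direction of the member where it exceeded the technical SD of 0.087. In the set higher in TR9_MeTA14, 16 of 48 genes had such a probe well above background on all arrays, 19 probes in all. Of these 19, 6 changed in the directions of the member in both lines, those of GTF2IRD2, PAFAH2, CCDC74B, MAT2B, HES6 and ASB1. Taken singly, 10 of the 19 did so in TR9_MeTA14 and 14 in TR15_MeTA5. In the set lower in TR9_MeTA14, 11 of 48 genes had such a probe, 12 in all. Only 2 of the 12, those of ASS1 and SLC13A3, changed in the directions of the member in both lines. Taken singly, 10 of the 12 did so in TR9_MeTA14 and 3 in TR15_MeTA5. The share of all probes changing in these directions past this SD was not computed, so these counts are a description. Over all probes, 26.0% had opposite signs of any size, both directions together. The median changes were -0.15 in TR9_MeTA14 and -0.19 in TR15_MeTA5. The 2 further HES6 probes that passed the rule are left out by this definition.

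ASS1 changed by -1.92 and 0.55 by its other probe and by -2.11 and 0.67 by the member. The other probe of SLC13A3 changed by -1.48 and 0.33. GTF2IRD2 (0.94 and -0.46), PAFAH2 (0.71 and -0.25) and MAT2B (0.75 and -0.39) also kept both directions by their other probes. Against these, the second probe of FOLR2, at 3.26% to 5.61%, changed by -0.38 and -0.40. The brighter probe of PSMA1, at 1691% to 2255%, changed by -0.42 and -0.27, and that of TOMM20, a receptor of the mitochondrial import machinery, by -1.14 and -0.09. The other HDGF probe changed by -0.89 and -0.23, and both others of KCTD9 by -1.13 and -0.62 and by -1.15 and -0.51. HLA-DPA1 changed by 0.61 and 0.58 by its other probe. In these genes only 1 measured probe moved oppositely in the direction of its set. Whether probes of a gene read the same transcripts was not tested.

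**Figure D4:**
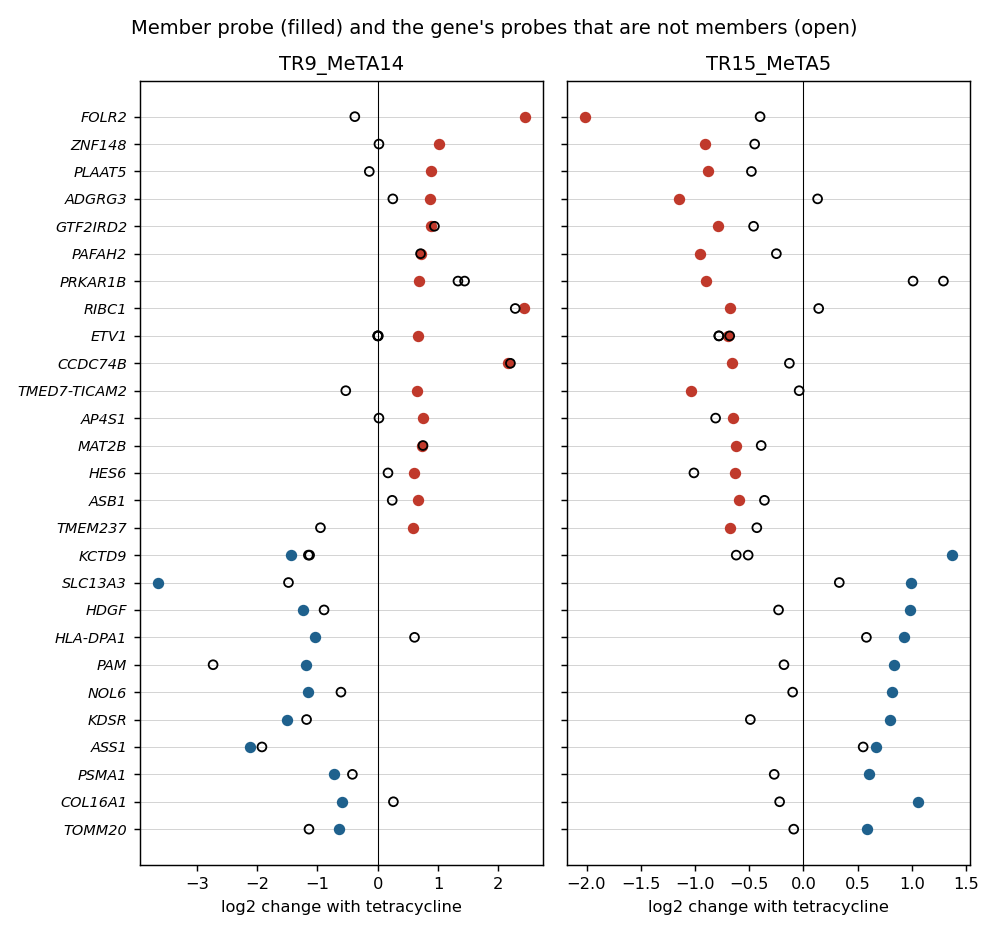
Log2 change with tetracycline in TR9_MeTA14 (left) and TR15_MeTA5 (right) of the member probe (filled, red for genes higher and blue for genes lower in TR9_MeTA14) and of the gene's probes that are not members but were well above background on all 4 arrays (open), for the 27 genes that have one. In TR15_MeTA5 most open points of the blue genes lie left of 0 while the filled points lie right of it.

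Over 28 gene lists of pathways and cell states, 834 genes were measured on all arrays and 7 were members (0.839%), close to the 96 of 12706 measured genes in all (0.756%). No list held more than 1. The 10 and 17 member probes without a gene could not enter any, among them the 7 bright ones with Ensembl identifiers. These counts therefore cover named genes only. UGT2B15 was the member among 36 androgen-responsive genes, whose median changes were -1.65 and -0.65 in TR9_MeTA14 and TR15_MeTA5. DDC was 1 of 11 neuronal and neuroendocrine genes (medians 0.33 and -0.18), MAGEC1 1 of 15 cancer-testis genes (-0.40 and -0.27) and TALDO1 1 of 32 antioxidant and glutathione genes (-0.45 and -0.41). BAMBI was 1 of 38 TGF-beta, BMP and WNT signalling genes (0.04 and -0.02), HLA-DPA1 1 of 20 HLA and antigen presentation genes (-0.42 and -0.06) and PSMA1 1 of 34 proteasome genes (-0.03 and -0.21). The medians over all genes were -0.14 and -0.19.

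The other 21 lists had no member paired with a gene. Opposite signs of any size were found in none of 69 cytosolic ribosomal protein genes (medians -1.36 and -0.47) and none of 32 mitosis and spindle genes (-2.69 and -0.70). They were found in 19 of 39 histone genes (0.02 and -0.60) and 15 of 34 proteasome genes, and in 24.7% of all measured genes. Among gene families looked up after the members were seen, 3 of 35 keratin-associated protein genes, 3 of 416 genes named ZNF, 1 of 50 olfactory receptor genes and 2 of 181 genes with long noncoding RNA symbols were members, against 0.756% of all measured genes.

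At the threshold, the smaller of both changes was 0.586 for TMEM237, 0.590 for the probe DA734158 and 0.593 for ASB1 in the first set, and 0.586 for LHFPL2 and 0.588 for the probe BC008131 in the second, where SAMD12, with changes of -1.41 and 0.59, was closest of all. Just outside were CARD8 (0.584), CDC42SE2 (0.580) and ITPRID2 (0.579) in the first direction, and the probe A_33_P3323463 (0.583), GANC (0.574) and EPB41L2 (0.574) in the second. In 36 of the 60 and 20 of the 65 members the smaller change was under 0.7, within a technical error of the cut-off.

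How many probes counted as opposite depended on the scaling. Members kept their opposite directions in 60 of 60 and 65 of 65 under spike-in scaling and without any scaling. The rule fixed this, because both settings shift every change in a line by 1 amount below the 1.5-fold cut-off. Leaving out the scaling shifts the changes by 1.26-fold in TR9_MeTA14 and 1.48-fold in TR15_MeTA5. Opposite directions were kept in 60 of 60 and 61 of 65 under quantile normalization, alone or after another background correction (normexp). The sizes of the members' changes did not hold. The median TR15_MeTA5 change of the first set was -0.71 as reported, -0.35 with spike-in scaling and -0.15 without scaling, and the median TR9_MeTA14 change of the second was -1.01, -0.89 and -0.68. Of the 60 and 65 members, 18 and 53 stayed past the cut-off with spike-in scaling and 12 and 34 without scaling. Quantile normalization alone left 33 and 47 past it, and after normexp 12 and 23. The probes past the cut-off shifted toward the set lower in TR9_MeTA14, from 60 and 65 to 25 and 152 with spike-in scaling and to 21 and 224 without scaling, so that the share in the first set went from 48.0% to 14.1% and 8.57%. The share was 35.0% after normexp and quantile normalization, 64.2% with dim probes let in, and 31.2% at 2-fold. Spike-in scaling moved the median change of all probes in TR9_MeTA14 from -0.15 to -0.04 and that in TR15_MeTA5 from -0.19 to 0.18.

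**Figure D5:**
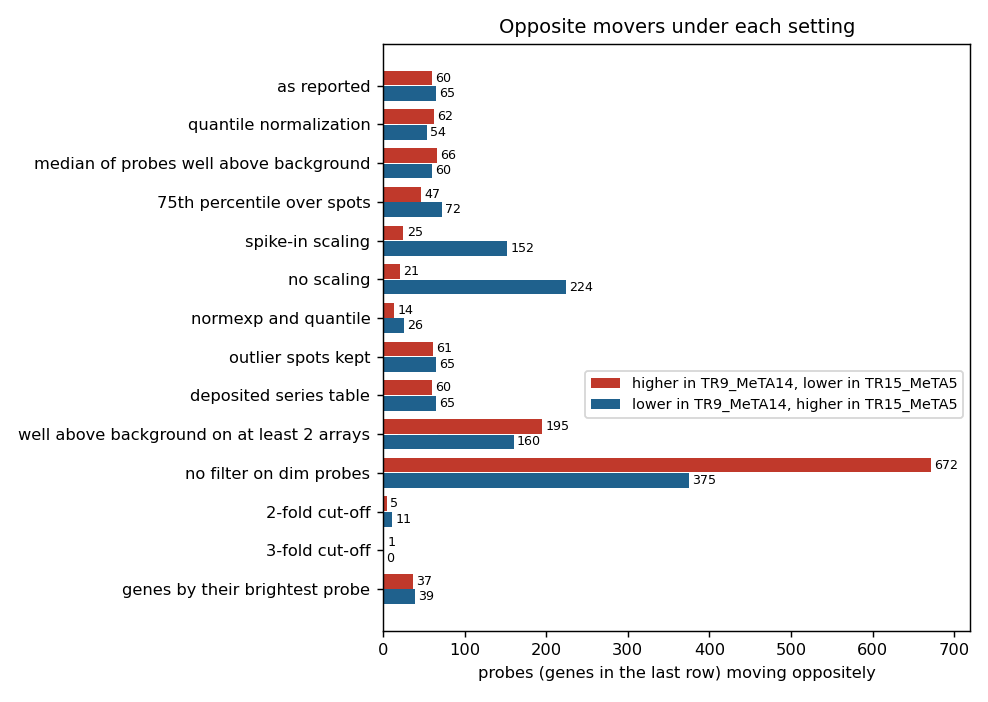
Number of probes (genes in the bottom row) counted as moving oppositely under each setting, red for those higher and blue for those lower in TR9_MeTA14, with bars from 0. The reported counts are 60 and 65, and counts range from 1 and 0 at 3-fold to 672 and 375 with dim probes let in.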

How the data were processed

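Cy3-labeled cRNA from the 4 samples was hybridized to Agilent whole human genome arrays on 1 slide, which leaves no slide effect to compare. The authors extracted the images with Agilent Feature Extraction 10.7.3.1, per the file headers, and deposited spot intensities. Their processed signal is background-subtracted and not normalized between arrays, and a deposited series table held the same values. The labels' processing notes name version 9.5.1.

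From these, log2 processed signals were averaged over the spots of a probe, without the 255 to 344 spots flagged as outliers on each array, minus the array's 75th percentile over non-control probes. A probe of several spots counted as well above background where most of its spots did. No spot was saturated. RefSeq accessions (GRCh38.p14) paired 25422 probes (74.5%) with 1 gene. The genes named were the 15 per direction with the largest smaller-of-both change, by the brightest member probe, and members on the gene lists. Others are named as chosen after their values were seen. The members, the rule and the lists were chosen with earlier results of these data known. The selection code was checked on simulated arrays, with planted changes well past the cut-off and noise below the members' software errors. That check covers the code and says nothing about members near the cut-off. No test was run. The alternatives used limma 3.58.1 in R 4.3.3 for normexp (offset 50), and Python 3.11.15, numpy 2.4.6 and pandas 2.3.3 otherwise. The number of arrays limits the precision. Some markers of the cell type lists are not reported here.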

Additional observations from a re-analysis of the deposited data

Results flagged for a closer look

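Each result here is marked because the 2 lines moved in opposite directions with tetracycline, 60 probes one way and 65 the other. The difference between the lines was not tested, since 4 arrays leave 0 residual degrees of freedom for it. The values below are the log2 change in TR15_MeTA5 minus that in TR9_MeTA14 for the genes named by rule.

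Among genes higher in TR9_MeTA14 and lower in TR15_MeTA5, the changes differed for FOLR2 by -4.45, DHRS2 by -4.28, DDC by -3.58, UGT2B15 by -2.45, INCA1 by -2.15, ADRB3 by -1.94, ZNF148 by -1.93, PLAAT5 by -1.77 and ADGRG3 by -2.01. They differed in the same sense for GTF2IRD2 by -1.67, IFI27L1 by -3.27, GLOD5 by -2.54, TMX4 by -2.59, RNASE4 by -1.72, DUSP18 by -3.41, MAGEC1 by -1.61 and TALDO1 by -1.29.

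Among genes lower in TR9_MeTA14 and higher in TR15_MeTA5, the changes differed for B3GNT5 by 3.98, KCTD9 by 2.79, ACTA2 by 3.49, ASB10 by 2.75, FGF13 by 2.29, P2RY1 by 3.20, ADAM7 by 2.39, C5orf58 by 2.21 and OR5L2 by 2.35. They also differed for TMEM171 by 2.03, OTUD6A by 2.0, SLC13A3 by 4.63, HDGF by 2.21, DIO3 by 4.92, GRB14 by 3.63, HLA-DPA1 by 1.97, BAMBI by 1.56 and PSMA1 by 1.33.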

How the results depend on the processing

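No paired analysis was possible because each condition had 1 array, and for the same reason no replicate could be left out. The counts of probes higher in TR9_MeTA14 and lower in TR15_MeTA5, and of the reverse, were 60 and 65. They were 25 and 152 with spike-in scaling, 21 and 224 without scaling, 14 and 26 with normexp and quantile normalization, 195 and 160 with a filter on at least 2 arrays and 672 and 375 without a filter. They were 5 and 11 at 2-fold, 1 and 0 at 3-fold, and 37 and 39 when genes were counted by their brightest probe, which tests fewer features. The other settings, quantile normalization, the median of probes well above background, the percentile over spots, all spots kept and the deposited table, left both counts within 1.5 times.

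The median gap between the lines over the first set without tetracycline, 1.00, was -0.03 with spike-in scaling, 0.25 without scaling and 0.43 with normexp and quantile normalization. With tetracycline, -0.91 became -1.0 with quantile normalization, -1.69, -1.43 and -0.48 with the other 3. Over the second set, the gap without tetracycline of -1.58 was -2.61, -2.33 and -1.12 under these 3 settings, and that with tetracycline of 0.68 was -0.10, 0.16 and 0.33. The direction thus turned only with spike-in scaling. This scaling shifts all gaps without tetracycline by 1 amount and all gaps with it by another, so the turn follows from the shift. Which scaling is closer to the RNA levels was not tested. The 70 changes of the 35 genes named by rule kept their sign under all 8 scaling, background and spot settings. Under spike-in scaling and without scaling the rule fixed this, since all changes of a line shift by 1 amount below the cut-off. The 20 changes with other measured probes kept their sign in the mean over the gene's probes, which includes the member. In that mean 19 of the 20 moved by more than the technical SD, such as KCTD9 in TR15_MeTA5 from 1.37 to 0.08, FOLR2 in TR9_MeTA14 from 2.44 to 1.03 and HDGF in TR15_MeTA5 from 0.98 to 0.37. At 2-fold, CpG content was void for the first set, with promoter windows for 3 of 4 genes. In the second, 8 of 10 genes had one, with a median of 18.5 CpG per 300 bases against 25.0 over all measured genes with a window. Signals near background limit the dim members most.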
